A study of Mus musculus with 23 samples.

Results

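The miR-30 family was followed across small RNA libraries of mouse retina. Its members were taken by name, as the mature rows of the miR-30 loci in the deposited count matrix, and no measured value entered the choice. There were 6 such rows among 903 mature rows: mir-30a, mir-30b, mir-30c-1, mir-30c-2, mir-30d and mir-30e. mir-30f was not analysed here. The study holds 23 libraries, each from 1 retina taken at postnatal day 90, and its title and labels set out a comparison of retinas with mutant rhodopsin, left alone or treated with rhodopsin DNA nanoparticles, and of WT retinas. P23H+/- KI mice carry a knocked-in P23H rhodopsin allele beside a normal one, and this mutant is a model of retinitis pigmentosa. The mouse gRho group (7 mice, 11 libraries) were P23H+/- KI mice treated with the genomic form of the mouse rhodopsin gene in DNA nanoparticles. The human gRHO group (2 mice, 3 libraries) were P23H+/- KI mice given the genomic form of the human gene. The saline group (1 mouse, 2 libraries) were P23H+/- KI mice given saline, and the uninjected group (3 mice, 5 libraries) were P23H+/- KI mice with no treatment. The WT group (2 mice, 2 libraries) were untreated C57B mice. The mutant allele is therefore carried by all groups but WT, and the labels name no carrier particle without a rhodopsin gene. Mice were inferred from the sample titles, and the title numbers that may mark cages never recur across groups, so treatment and cage cannot be told apart.

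A microRNA guides Argonaute to mRNAs, mainly by pairing of its seed (bases 2 to 8) with sites in the 3′ untranslated region, and the mRNA is then repressed. The miR-30 loci make guides with one shared 5p seed, so their target sets overlap widely. The family is known from cultured cells and other tissues for repressing the autophagy gene Becn1 and Snai1, and a 3p product of mir-30c-2 is known as a repressor of Xbp1, a transcription factor of the unfolded protein response. Misfolded P23H rhodopsin is retained in the endoplasmic reticulum of rod photoreceptors.

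Mature sequences of 4 of the 6 members were matched in the table of RefSeq miRNAs used here (GRCm38.p6), and these are shown with that of mir-384, a locus outside the family by name that carries the family's 5p seed. Capitals mark bases 2 to 8 from the 5′ end. The 5p products come first, because they define the family.
miR-30a-5p: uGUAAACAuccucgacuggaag
miR-30e-5p: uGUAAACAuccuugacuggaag
miR-30c-5p: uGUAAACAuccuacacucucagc
miR-384-5p: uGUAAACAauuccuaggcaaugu
The 3p products are shown because a deposited row gives its locus without the arm, and either product may have supplied the reads of a row.
miR-30a-3p: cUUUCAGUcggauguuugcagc
miR-30e-3p: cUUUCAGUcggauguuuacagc
miR-30c-1-3p: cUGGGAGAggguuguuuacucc
miR-30c-2-3p: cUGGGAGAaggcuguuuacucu

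Counted from the 5′ end, miR-30a-5p and miR-30e-5p are both 22 bases long and differ at 1 base, C13U. Their 3p products also differ at 1 base, G18A. mir-30c-1 and mir-30c-2 make the same 5p product of 23 bases, and their 3p products differ at 3 bases (G9A, U12C and C22U). miR-384-5p shares the seed with miR-30a-5p and differs from it at 10 of the bases after the seed. In the table used, the loci with this seed in a 5p product were those of the 4 matched members and Mir384.

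On GRCm38.p6, Mir30a lies at chr1:23272269-23272339 on the plus strand, with no gene annotated over it. Mir30c-2 lies 19361 bases away on the same strand, at chr1:23291701-23291784, where it overlaps an exon of the lincRNA Gm27028. Mir30e (chr4:120772606-120772697) and Mir30c-1 (chr4:120769534-120769622) lie on the minus strand in an intron of Nfyc, which encodes a subunit of the transcription factor NF-Y, with 2983 bases between them. The miRNA gene Mir30f lies on the opposite strand over Mir30e. Mir384 lies on chromosome X, at chrX:105344282-105344369 on the minus strand. The build behind the deposited counts is not given in the sources used here, and no count was placed by these coordinates.

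Depth ran from 5968388 to 16048954 mature miRNA reads per library. Levels are given as CPM, the counts per 1000000 of those reads. The mature rows of the matrix held only 10.4% to 19.5% of them, so a CPM here is a lower share than it would be among the rows themselves. Sums of markers listed for this report ran from 2612 to 13478 CPM for neuronal rows (mir-124 and mir-9, all 6 rows present) and from 52.9 to 1101 CPM for photoreceptor rows (mir-183, mir-182 and mir-96), so retinal markers were present in every library. The right eye of mouse gRho mouse 1 (52.9 CPM of photoreceptor and 2612 CPM of neuronal rows) and uninjected mouse 2 (198.4 and 4574 CPM) had the lowest sums of both, and 6 libraries had over 3% rRNA among aligned reads, from uninjected mice 2 and 3 and mouse gRho mice 2, 3 and 6. No member was called in a comparison between groups when that pair or those 6 libraries were left out. Other markers were also present: 2 of the 3 listed red blood cell markers had a row (mir-486a was not analysed here) and summed to 77.9 to 2285 CPM over libraries, 3 of 3 vascular rows to 746 to 2888 CPM, 4 of 4 leukocyte rows to 21.9 to 935 CPM, 6 of 6 surface epithelium rows to 80.0 to 1526 CPM, and 5 of 5 muscle rows to 653 to 92779 CPM. The tests below covered only 2 of the leukocyte rows, 5 of the surface epithelium rows and 2 of the muscle rows. The sums of these lists therefore include rows outside the tests. The part of these markers in the values below was not tested. Fewer cells of a type and less RNA per cell cannot be told apart in these whole retinas.

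A pair of rows carried nearly all of the reads counted in the family's rows. mir-30a had a median of 23222 CPM over 23 libraries, with a range of 12982 to 31927 CPM, and ranked 2nd of the 903 mature rows. mir-30e had a median of 8940 CPM (6236 to 11305) and ranked 5th. Of 7375118 family reads, 71.5% were in mir-30a and 27.8% in mir-30e, 99.4% together. These are shares of the reads in the family's rows. The rows name no arm and leave out most mature miRNA reads, so the shares may not hold for the guides.

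The other 4 rows were far lower. mir-30c-2 had a median of 166.8 CPM (124.3 to 247.9) and ranked 36th, and it held 0.537% of the family's reads. mir-30c-1 had a median of 11.2 CPM (8.82 to 19.8), mir-30b 10.6 CPM (5.63 to 18.1) and mir-30d 6.18 CPM (3.26 to 9.04), with ranks of 149, 151 and 173. These last 3 rows together held 0.0909% of the family's reads. The order of the first 3 was the same in the median and their ranges over libraries did not overlap, whereas the ranges of mir-30c-1 and mir-30b overlapped almost fully and that of mir-30d overlapped both. mir-30b exceeded mir-30d in every mouse but mouse gRho mouse 6, where the ratio was 0.857.

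The seed mate mir-384, known as a brain-enriched miRNA, had a median of 466.3 CPM (145.8 to 747.8) and ranked 18th. This was 2.79 times the median of mir-30c-2, so mir-384 was the third most abundant of the 7 rows with a miR-30 name or a RefSeq match to its seed. The 6 family rows made up 14.1% to 32.4% of the reads in mature rows (median 24.1%), and 2.17% to 4.35% of all mature miRNA reads (median 3.18%).

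**Figure D1:**
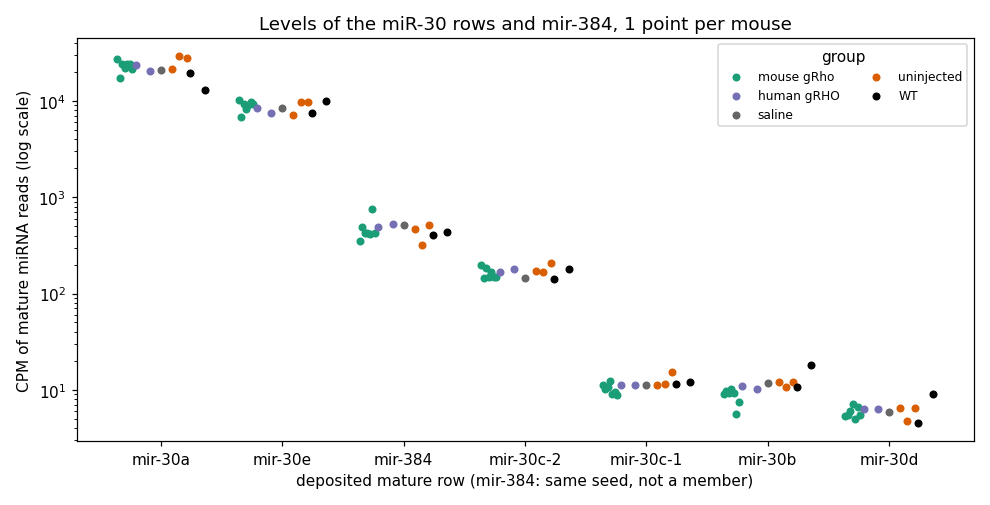
CPM of mature miRNA reads (log axis) of the 6 miR-30 rows and mir-384, with 1 point for each of 15 mice, coloured by group. The mice sit at 12982 to 29203 CPM for mir-30a and 6835 to 10182 CPM for mir-30e, at 316.4 to 747.8 CPM for mir-384 and 140.2 to 205.3 CPM for mir-30c-2, and under 20 CPM for the other 3 rows.

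Loci that make one and the same 5p product had different read totals. mir-30c-2 had 39600 reads and mir-30c-1 had 2685, a ratio of 14.8. By mouse this ratio averaged 16.0 ± 2.2 in mouse gRho mice (SD, n = 7), 15.5 ± 1.0 in human gRHO mice (n = 2), 12.8 in the saline mouse, 14.3 ± 1.0 in uninjected mice (n = 3) and 13.4 ± 1.9 in WT mice (n = 2). A read of the shared 5p product has no unique origin, and no source used here says how the counting placed such reads. The rows name no arm, and the 3p products of these loci differ, so the counts may instead be of 3p reads. This ratio is therefore uncertain as a difference between the loci.

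The precursor and stemloop classes held few reads. The precursor row of mir-30c-2 had 257 reads, with 3 to 20 in each of the 23 libraries, against 81 for the precursor of mir-30c-1 and 35 for that of mir-30a, although mir-30a had 5275095 mature reads and mir-30c-2 had 39600. For mir-30e the order of the classes was the other way round, with a median of 11 reads in the stemloop row (2 to 30 in each of 23 libraries) and a median of 0 in the precursor row, which had reads in 5 libraries. The stemloop rows of mir-30a, mir-30b and mir-30d held 1, 6 and 3 reads.

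On the CPM scale, the family's levels varied less between mice than those of most tested rows. No TMM factors, the scaling used in the tests below, entered these values, and the spread after that scaling was not tested. The tested rows include rows of low counts and were not matched to the members by level. Over the 7 mouse gRho mice the coefficient of variation (CV, the SD as a percent of the mean) of the 6 rows was 12.2% to 18.4%, against a median of 38.1% over the 382 tested rows. Over all 15 mice, whatever their group, mir-30c-2 had a CV of 12.2%, the 2nd lowest of 382 rows, and mir-30e one of 12.7%, the 3rd lowest. mir-30c-1 (14.3%, 7th), mir-30d (18.2%, 15th) and mir-30a (18.4%, 18th) followed, and mir-30b (25.7%) ranked 76th, all under the median of 43.4%. Counting error alone would give a CV of 0.167% for mir-30a and 10.4% for mir-30d over the 7 mouse gRho mice, where mir-30d had 47 to 165 reads a mouse.

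Uninjected P23H retinas were set against WT to ask which rows differ with the mutation. None of the 6 rows was called, that is, reached a Benjamini-Hochberg adjusted p under 0.05 over 382 rows in edgeR's quasi-likelihood test (n = 3 and 2 mice), whereas 1.57% of all tested rows were called. An unadjusted p under 0.05 was reached by 1 of 6 rows, mir-30b, against 63 of 382 in all, and DESeq2 called 0 of 6. The log2 fold changes had a median of -0.42 over the family and -0.09 over all tested rows.

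mir-30a had 21533, 29203 and 27686 CPM in uninjected mice, against 19652 and 12982 CPM in WT mice. All 3 uninjected mice lay above both WT mice, as they did for 22.5% of all tested rows on this scale. The log2 fold change was 0.25 (SE 0.22, edgeR adjusted p = 0.56). mir-30e had 7173, 9843 and 9868 CPM in uninjected mice, against 7579 and 10083 CPM in WT mice, and the groups overlapped. Its log2 fold change was -0.48 (SE 0.25, edgeR adjusted p = 0.37).

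mir-30b had 11.9, 10.74 and 11.9 CPM in uninjected mice, against 10.68 and 18.1 CPM in WT mice. WT mouse 2 stood above all other mice and WT mouse 1 lay just below the uninjected mice. The log2 fold change was -0.82 (SE 0.33, edgeR adjusted p = 0.239). mir-30d had 6.43, 4.73 and 6.40 CPM in uninjected mice, against 4.56 and 9.04 CPM in WT mice, so that again WT mouse 2 was the highest of all mice and WT mouse 1 the lowest. Its log2 fold change was -0.72 (SE 0.37, edgeR adjusted p = 0.37). For mir-30c-1 the log2 fold change was -0.37 (SE 0.26) and for mir-30c-2 it was -0.30 (SE 0.26), with edgeR adjusted p of 0.491 and 0.588.

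**Figure D2:**
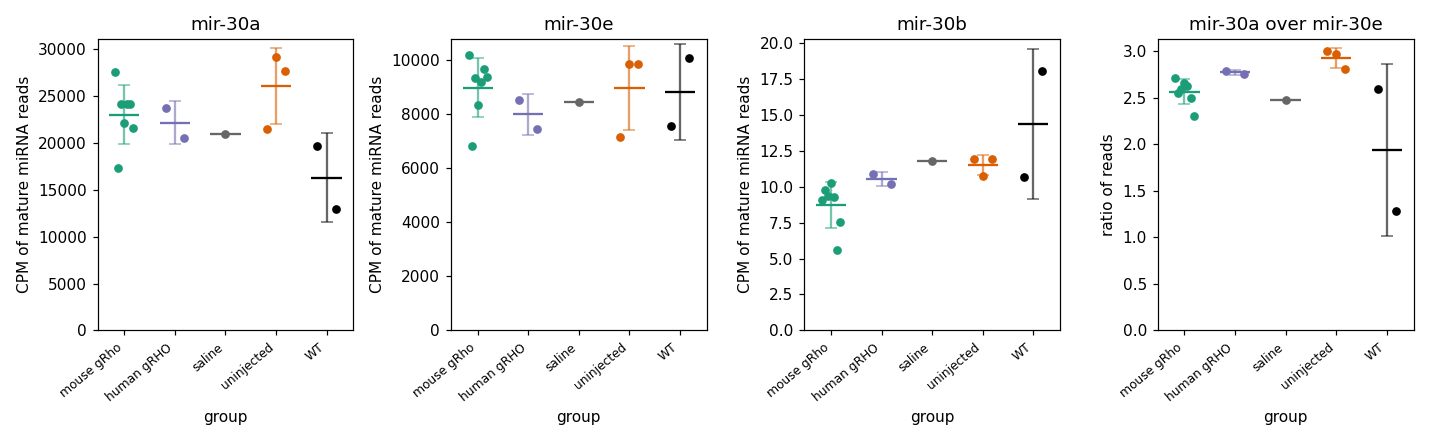
CPM of mature miRNA reads of mir-30a, mir-30e and mir-30b, and the ratio of mir-30a to mir-30e reads, by group, with 1 point per mouse, the group mean as a line and the SD as a bar where a group has over 1 mouse. WT mouse 2 is the lowest mouse for mir-30a and the ratio (1.29) and the highest for mir-30b (18.1 CPM).

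These differences turned on the scaling and, for all rows but mir-30a, on WT mouse 2. WT mouse 2 had a TMM factor (the scaling that edgeR derives from all rows) of 0.734, the others between 0.897 and 1.26. It also had the lowest share of crossmapped reads among miRNA reads, 5.52% against a median of 12.07%, and a photoreceptor marker sum of 306 CPM, where WT mouse 1 had 1101 CPM. Among the 23 libraries it had the lowest sums of inner retina rows (182.7 CPM) and of pigment epithelium and glia rows (53.7 CPM). Its sum over the 5 muscle rows was the highest (92779 CPM), but only 2 of these rows were tested. On those 2 rows the order was the other way round. WT mouse 2 had a median log2 deviation of -2.66 after TMM scaling, the lowest of all mice. The high sum therefore does not hold for the tested muscle rows. The part of these read shares and marker levels in the comparison was not tested. Without TMM factors, the fold changes of all rows shifted by a median of 0.43 on the log2 scale, and the values were 0.68 for mir-30a, 0.02 for mir-30e, 0.10 for mir-30c-1, 0.19 for mir-30c-2, -0.32 for mir-30b and -0.22 for mir-30d, so 3 rows changed sign and none was called. Without WT mouse 1, mir-30b and mir-30d were called lower, at -1.17 (edgeR adjusted p = 0.0124) and -1.15 (edgeR adjusted p = 0.0222), in a fit that called 60 of 382 rows, against 6 with both WT mice. A fit without either WT mouse leaves WT as a lone mouse, which is assumed to vary like the mice of the other groups, here and in the comparisons below. Without WT mouse 2, they were at -0.05 and 0.21, mir-30e was at 0.08, mir-30c-1 at -0.03, mir-30c-2 at 0.21 and mir-30a at 0.26, and none was called.

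**Figure D3:**
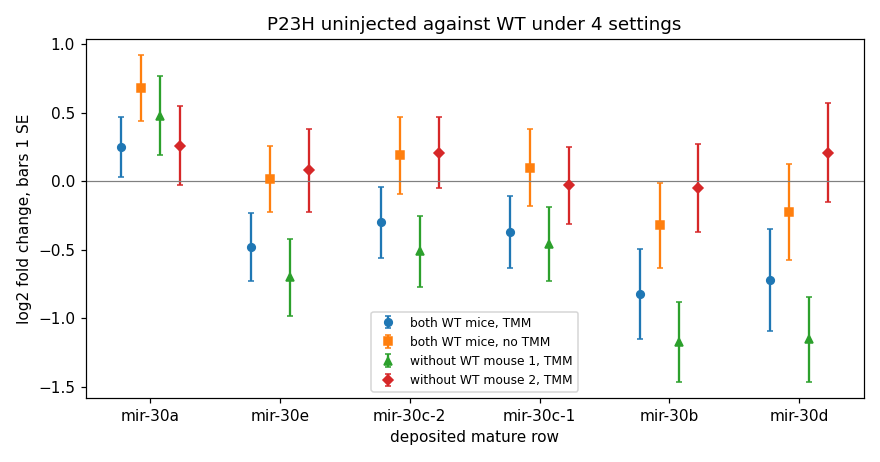
Log2 fold change of the 6 rows in uninjected P23H mice against WT mice (edgeR, bars 1 SE), with both WT mice and TMM factors, with no TMM factors, and without each WT mouse in turn. mir-30a is above 0 under all 4 settings, from 0.25 to 0.68, while mir-30b runs from -1.17 without WT mouse 1 to -0.05 without WT mouse 2.

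The mouse gRho group was set against uninjected P23H mice to ask what the treatment changed. Neither any member nor any other row was called (0% of 382 rows, n = 7 and 3 mice), and an unadjusted p under 0.05 was reached by 0 of 6 members and 18 of 382 rows (edgeR); DESeq2 called 0 of 6 too. mir-30a had 17386 to 27549 CPM in mouse gRho mice (median 24125), against 21533, 29203 and 27686 CPM in uninjected mice, and the groups overlapped. The log2 fold change was 0.02 with a 95% interval of -0.32 to 0.36 (edgeR adjusted p = 0.982). mir-30e had 6835 to 10182 CPM in mouse gRho mice (median 9334), against 7173, 9843 and 9868 CPM in uninjected mice. Its log2 fold change was 0.21, with an interval of -0.19 to 0.62 (edgeR adjusted p = 0.951). For the rows that hold 99.4% of the family's reads, the intervals of the edgeR fit with TMM factors thus reach no further than -0.32 and 0.62. Over the family the log2 fold changes of that fit ran from -0.21 to 0.21. Other settings moved these values. mir-30a was at -0.18 (SE 0.18) without TMM factors, and mir-30e at 0.37 (SE 0.31) without the rRNA-rich libraries.

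mir-30b had 5.63 to 10.3 CPM in mouse gRho mice (median 9.29), against 11.9, 10.7 and 11.9 CPM in uninjected mice. All 7 mouse gRho mice lay below all 3 uninjected mice and below both WT mice (10.7 and 18.1 CPM), as did 2.62% of the tested rows against uninjected mice and 3.14% against WT mice on the CPM scale. By library the groups overlapped, with up to 11.4 CPM in a mouse gRho retina and down to 9.52 CPM in an uninjected one. After TMM scaling the log2 fold change against uninjected mice was -0.21 (SE 0.25, edgeR adjusted p = 0.982), and it was -0.40 without TMM factors, where all rows shifted by -0.19. It was -0.08 without uninjected mouse 1 and -0.12 without mouse gRho mouse 6, which had the lowest level and 4.85% rRNA.

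Against WT, 0 of 6 members were called in mouse gRho mice, where 3.14% of all rows were (edgeR, n = 7 and 2 mice). An unadjusted p under 0.05 was reached by 2 of 6 members, against 69 of 382 rows. mir-30b had the largest difference, with a log2 fold change of -1.03 (SE 0.28, 95% interval -1.62 to -0.44) and an edgeR adjusted p of 0.0521. It was called lower by DESeq2, at -0.99 (adjusted p = 0.0315), with library sizes taken from the mature rows, at -1.03 (edgeR adjusted p = 0.0376), and with each retina as a unit and the mouse as a random effect, at -0.90 (adjusted p = 0.0457). It was also called without mouse gRho mouse 1 (edgeR adjusted p = 0.0388), without mouse gRho mouse 4 (edgeR adjusted p = 0.0489), and without WT mouse 1, at -1.43 (edgeR adjusted p = 0.000939). These 6 fits called 18 of 366 rows (DESeq2) and 13, 19, 14, 12 and 64 of 382 rows, in the order given, against 12 of 382 in the fit of all mice. Without WT mouse 2 it was at -0.29 and not called. mir-30d was at -0.55 (SE 0.32), with -1.01 without WT mouse 1 (edgeR adjusted p = 0.0225) and 0.36 without WT mouse 2.

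For the other members in this comparison the log2 fold changes were 0.27 for mir-30a (SE 0.19), -0.26 for mir-30e (SE 0.22), -0.26 for mir-30c-2 (SE 0.23) and -0.48 for mir-30c-1 (SE 0.22), with edgeR adjusted p of 0.424, 0.499, 0.519 and 0.268. The comparisons of mouse gRho and of uninjected mice with WT share both WT mice.

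The human gRHO mice had 23802 and 20546 CPM of mir-30a, against 21533, 29203 and 27686 CPM in uninjected mice. They had 8537 and 7459 CPM of mir-30e, against 7173, 9843 and 9868 CPM in uninjected mice. The log2 fold changes were -0.04 (95% interval -0.49 to 0.41) and 0.03 (-0.50 to 0.57), and no member was called (0% of all rows). At an unadjusted p under 0.05 there were 0 of 6 members and 10 of 382 rows (edgeR), and DESeq2 called 0 of 6. mir-30b was at 10.9 and 10.2 CPM, mir-30d at 6.27 and 6.26 CPM, mir-30c-1 at 11.3 and 11.1 CPM and mir-30c-2 at 167.0 and 180.2 CPM in these mice, each within the range of the other mice. Against WT mice, mir-30a was higher in both human gRHO mice without overlap, as were 25.1% of tested rows on the CPM scale, and mir-30c-1 was lower without overlap, at 11.3 and 11.1 CPM in human gRHO mice, against 11.6 and 12.2 CPM in WT mice, as were 12% of rows.

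Between the constructs, human gRHO against mouse gRho, the log2 fold changes were -0.06 for mir-30a (95% interval -0.46 to 0.33) and -0.18 for mir-30e (-0.65 to 0.29). Here too 0 of 6 members and 0% of all rows were called (edgeR, n = 2 and 7 mice), and 0 of 6 members and 11 of 382 rows had an unadjusted p under 0.05. Against WT, human gRHO mice had log2 fold changes of 0.21 for mir-30a (SE 0.23), -0.44 for mir-30e (SE 0.28) and -0.77 for mir-30b (SE 0.37). No row was called in that comparison (0% of 382), and 0 of 6 members and 38 of 382 rows had an unadjusted p under 0.05. mir-30b was called without WT mouse 1, at -1.19 (edgeR adjusted p = 0.0202), where 46 of 382 rows were called, and was at -0.11 without WT mouse 2.

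With 1 saline mouse, the fit borrows the spread of the other groups for it. It had 20951 CPM of mir-30a, 8461 of mir-30e, 145.0 of mir-30c-2, 11.3 of mir-30c-1, 11.8 of mir-30b and 5.94 of mir-30d. Against uninjected mice the log2 fold change was -0.01 for mir-30a (95% interval -0.58 to 0.56) and 0.23 for mir-30e (-0.44 to 0.89), and 0 of 6 members and 0% of all rows were called (edgeR; 0 of 6 members and 13 of 382 rows had an unadjusted p under 0.05). Against saline, 0 of 6 members and 0% of rows were called in mouse gRho or human gRHO mice (edgeR; unadjusted, 0 of 6 members in each and 3 and 5 of 382 rows), with member log2 fold changes of -0.53 to 0.06 and of -0.27 to 0.15.

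With the 4 P23H groups weighted equally and set against WT, 0 of 6 members were called, against 3.4% of all rows (edgeR), and 1 of 6 members and 64 of 382 rows had an unadjusted p under 0.05. mir-30b was at -0.78 (SE 0.28, edgeR adjusted p = 0.15), mir-30a at 0.24 (SE 0.19) and mir-30e at -0.36 (SE 0.21). mir-30b was at -1.18 without WT mouse 1 (edgeR adjusted p = 0.00385), where 63 of 382 rows were called, and at -0.07 without WT mouse 2.

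**Figure D4:**
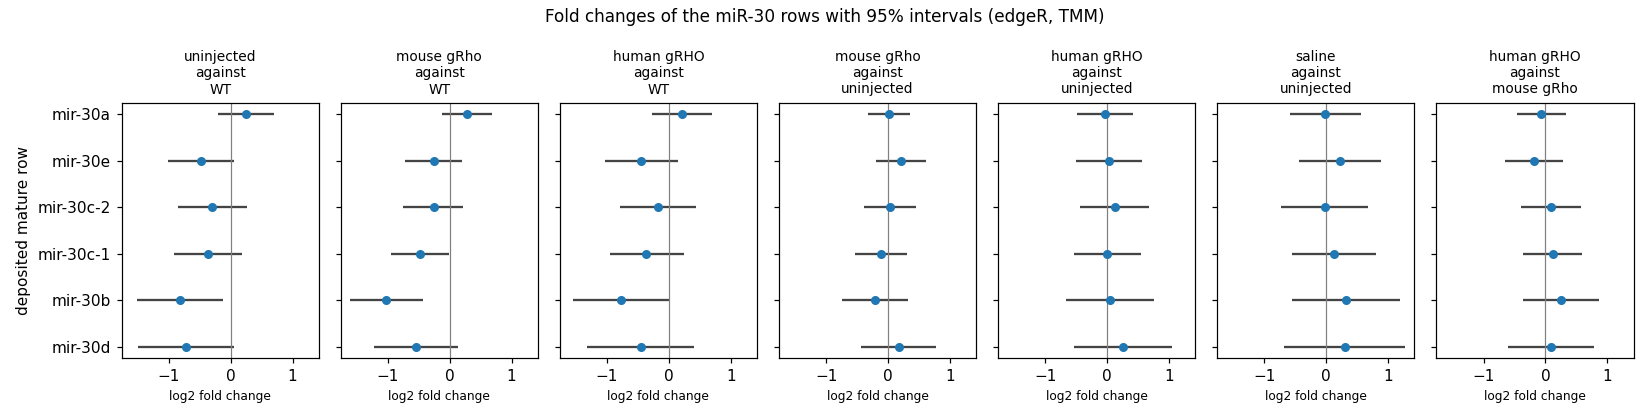
Log2 fold change of the 6 rows in 7 comparisons, with 95% intervals from the edgeR fit (TMM factors, 15 mice). The intervals include 0 for all 6 rows in the comparisons within P23H mice, and the largest departure is that of mir-30b in mouse gRho mice against WT, at -1.03.

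The balance of the leading pair was described within each library, where scaling cancels. It was chosen after its values were seen, so no test is given. The ratio of mir-30a to mir-30e reads was 2.30 to 2.71 in the 7 mouse gRho mice (mean 2.56 ± 0.13 SD), 2.79 and 2.75 in the human gRHO mice, 2.48 in the saline mouse, 3.00, 2.97 and 2.81 in the uninjected mice, and 2.59 and 1.29 in the WT mice. The uninjected mice lay above every other mouse, by a thin margin (2.81 against 2.79), and WT mouse 2 lay below every other mouse. How many other pairs of rows separate the groups in this way was not computed. By library the ratio was 2.30 to 2.82 in mouse gRho retinas, against 2.74 to 3.12 in uninjected retinas, so that single retinas overlapped. Of the uninjected mice, mouse 1 had 0.358% rRNA and the other two 5.14% and 3.41%, whereas only mouse gRho mouse 6 reached over 3% in its group as a whole mouse; their part in the ratio was not tested.

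Right and left retinas of the same mouse were compared in 8 mice. No member and no other row was called (0% of 382 rows, edgeR with a term for the mouse), and 0 of 6 members and 12 of 382 rows had an unadjusted p under 0.05. The log2 fold change of right against left was -0.10 for mir-30a and -0.10 for mir-30e, and the right eye had more mir-30a in 3 of 8 mice and more mir-30e in 4 of 8. In uninjected mouse 3 all 6 members were higher in the right eye. mir-30c-1 had 19.8 CPM on the right, against 11.3 CPM on the left, and mir-30d 8.44 CPM, against 4.44 CPM. The share of all rows higher in that eye was not computed. Sums of neuronal rows (9776 against 8285 CPM) and inner retina rows (652.4 against 471.4 CPM) were also higher on the right. Those of vascular (1283 against 1599 CPM) and red blood cell rows (1078 against 2285 CPM) were lower. In mouse gRho mouse 1, whose right eye had the lowest retinal marker sums, mir-30a had 31927 CPM on the right, against 23222 CPM on the left. In the same mouse mir-30d had 3.26 CPM on the right, against 7.34 CPM on the left, and mir-384 had 145.8 CPM on the right, against 547.5 CPM on the left. The leading pair was thus higher in an eye where mir-384 was at its lowest of 23 libraries.

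**Figure D5:**
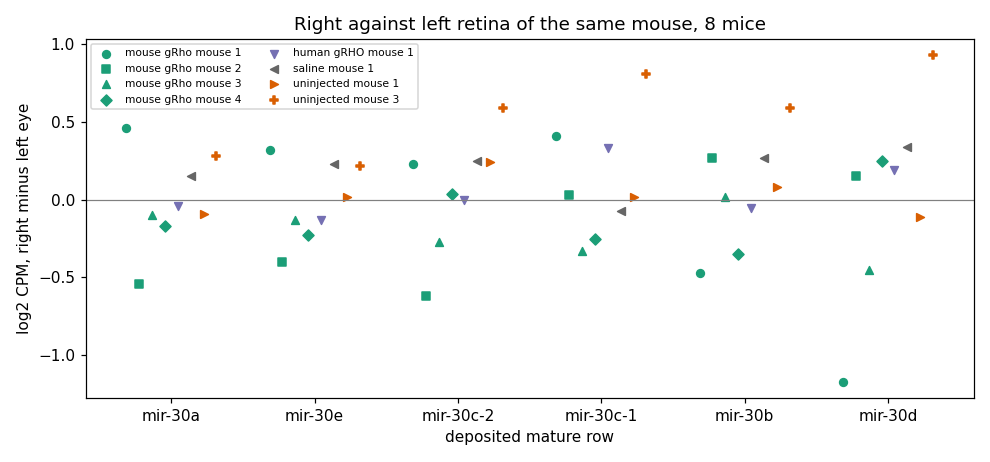
Difference in log2 CPM between the right and the left retina of each of 8 mice for the 6 rows, with 1 symbol per mouse. Uninjected mouse 3 is above 0 in all 6 rows, from 0.22 to 0.93, and mouse gRho mouse 1 is at 0.46 for mir-30a and -1.17 for mir-30d.

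The correlations between members were uneven. Over 23 libraries, which share depth, scaling and in part the mouse, Spearman's rho between mir-30a and mir-30e was 0.64, and that between mir-30b and mir-30c-1 was 0.49. That between mir-30a and mir-30b was -0.19. The Nfyc pair, mir-30e and mir-30c-1, had 0.19, and the chromosome 1 pair, mir-30a and mir-30c-2, had 0.47. Between mir-30c-2 and mir-30e it was 0.42. The rows mir-30b, mir-30c-1 and mir-30d had medians of only 105, 116 and 64 reads a library. Counting error can lower their values, so a low value there does not show that rows vary apart. Among the 121 other rows that averaged 10 CPM or more, the 5 most like the family's mean log2 CPM were mir-27b (0.63), mir-664 (0.50), mir-24-1 (0.43), mir-1981 (0.40) and mir-338 (0.37), and mir-384 had -0.18.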

How the data were processed

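The authors deposited raw read counts for each miRNA locus by annotation class, with a second table that counts each library's reads by alignment class. Per the labels' protocols, frozen retinas gave RNA by Trizol and a NEXTflex small RNA v3 kit made the libraries. DESeq2 (no version) is named in the submitters' processing notes, and for the aligner, counter and build the answer is: not given in the sources used here. CPM were computed from mature miRNA reads, with no TMM factor. Titles were read as cage, ear mark and eye, which is an inference, and libraries of 1 mouse were summed (23 libraries, 15 mice). Were it wrong, the spread behind the p-values could be partly technical. Every pair of libraries of one group differed beyond counting noise (chi-square over its degrees of freedom at least 166.7). Pairs read as 1 mouse ran from 287.6 (uninjected mouse 1) to 2813.5 (human gRHO mouse 1), the largest of all pairs. These values therefore do not bear out the reading of titles as mice. The test was that of edgeR 4.0.16 in R 4.3.3 (robust quasi-likelihood, TMM, 5 groups in 1 fit), with Benjamini-Hochberg adjustment at 0.05 over the 382 rows that reached 10 counts in 3 or more mice. This left out 65 rows that jumped between 2 levels across libraries, and no member was among them. All 6 members passed the filter. Alternatives used DESeq2 1.42.0, limma 3.58.1 for each retina as a unit, other scalings and filters, and fits without single mice or doubtful libraries. Named rows were the members, seed mates and the 5 rows most like the family. The scripts were tested on simulated data. Members, lists and comparisons were chosen with earlier results of these data known.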

Additional observations from a re-analysis of the deposited data

Results flagged for a closer look

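A mouse or retina far from the rest of its group was looked for in the 20 sets of 4 to 10 values at hand, and 2 were found. Chance would give about 1 in 20 were all values and sets independent. They are not, since some retinas share a mouse and some sets are ratios of the same rows. mir-384 was at 747.8 CPM in mouse gRho mouse 6, above the other 6 mice of its group. mir-30c-1 was at 19.8 CPM in the right eye of uninjected mouse 3, above the other 4 uninjected retinas.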

How the results depend on the processing

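Of 492 comparisons of 29 fold changes with an alternative, 274 used another setting and 218 left out 1 mouse; the sign changed in 21 and 19 of these and a call was gained in 3 and 8. No call was lost, since no member was called.

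Without TMM factors, uninjected against WT gave 0.10 for mir-30c-1, 0.19 for mir-30c-2 and 0.02 for mir-30e, and mouse gRho against WT gave 0.03 for mir-30c-2 and 0.03 for mir-30e. Without them mir-30a was at -0.18 in mouse gRho against uninjected, and mir-30e at -0.16 in human gRHO and -0.08 in saline against uninjected. For mir-30a in mouse gRho against uninjected, DESeq2 gave -0.03, library sizes from the mature rows -0.02, a filter of 1 count in 1 mouse -0.06, two-level rows kept -0.03 and only the groups compared -0.01. For mir-30e in human gRHO against uninjected, these gave -0.03, -0.01, -0.06 and -0.07 in the first 4. Without the pair of libraries lowest in retinal markers, mir-30a was at 0.02 in human gRHO and 0.03 in saline against uninjected, and without the rRNA-rich libraries at 0.07 and 0.09. None of these was called, and the cause was not tested. In mouse gRho against WT, 1 member (mir-30b) was called under DESeq2, with library sizes from the mature rows and with each retina as a unit, where 18 of 366, 13 of 382 and 19 of 382 rows were called.

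Leaving out single mice, the number of members called ran from 0 to 2 in uninjected, mouse gRho and the mean of P23H groups against WT, and from 0 to 1 in human gRHO against WT. The highest counts came without WT mouse 1, where 60, 64, 63 and 46 of 382 rows were called. It stayed at 0 in the other 7 comparisons. The ranges in uninjected against WT were -0.51 to 0.21 for mir-30c-2, -1.15 to 0.21 for mir-30d, -0.70 to 0.08 for mir-30e and -1.17 to -0.05 for mir-30b. In mouse gRho against WT they were -0.52 to 0.21 for mir-30c-2, -1.01 to 0.36 for mir-30d and -0.54 to 0.25 for mir-30e, and in the mean of P23H groups -0.64 to 0.13 for mir-30e. Against uninjected, mir-30a ran from -0.05 to 0.09 in mouse gRho, -0.14 to 0.02 in human gRHO and -0.11 to 0.05 in saline, and mir-30e from -0.06 to 0.09 in human gRHO. mir-30a ran from -0.16 to 0.00 in human gRHO against mouse gRho.

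The fits rest on 2 WT mice, and mir-30b, mir-30c-1 and mir-30d have at most 290, 195 and 145 reads in a library, which limits their precision. No paired analysis was possible between groups because the labels give no replicate numbers shared between groups.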

Other observations

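The abundant let-7, miR-26 and miR-29 families were measured in the same fit. None of their 12, 3 and 4 tested rows was called in any of the 11 comparisons (edgeR). In uninjected P23H against WT mice, the median log2 fold change was -0.15 over let-7, 0.09 over miR-26 and -0.04 over miR-29. In mouse gRho against uninjected mice it was 0.25, 0.27 and 0.10, against 0.03 for the miR-30 rows and 0.08 for all rows.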
